A study of Mus musculus with 11 samples.

Results

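The 33 mouse genes described here encode the enzymes and transporters that carry glucose through glycolysis to exported lactate, a few switches that set how much pyruvate takes this route, and the oxygen-sensing factor Hif1a with its sensors and some of its other targets. They were chosen by gene symbol, and all 33 were found among the 52661 genes of the authors' expression table. Of the splicing events with at least 10 reads in every library, 518 of 220976 belonged to these genes, in 24 of the 33. RNA was sequenced from N2A cells, a mouse neuroblastoma line also called Neuro-2A, harvested 48 h after siRNA transfection. The siRNAs targeted Fubp1, Khsrp, Khsrp and Fubp1 together (the double knockdown) or Rbm38, with 2 libraries per knockdown, and a non-targeting control (siNT) gave 3 libraries. All groups, siNT included, were transfected cells of this line, and the labels give no other difference in genotype or treatment between them. The study set out to measure how loss of these RNA-binding proteins, which the submitters call splicing factors, changes splicing and expression.

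Glycolysis splits glucose into pyruvate, and lactate dehydrogenase turns pyruvate into lactate, which monocarboxylate transporters export. Dividing and tumour-derived cells typically run this route even with oxygen present. HIF-1, of which Hif1a encodes the oxygen-labile subunit, binds promoters of many glycolytic genes at the core sequence ACGTG or GCGTG, while the prolyl hydroxylases encoded by Egln1 and Egln3 mark the HIF-1 alpha protein for destruction when oxygen is present. Pyruvate kinase is made in alternative forms from the Pkm gene: exon 9 gives PKM1, the form of adult muscle and brain, and exon 10 gives PKM2, the form of embryonic and most tumour cells. Fubp1 and Khsrp are related KH-domain proteins that bind single-stranded nucleic acid, and Khsrp, which the labels also call Fubp2, is known to act in splicing and in the decay of AU-rich mRNAs. Rbm38 carries a single RNA recognition motif and is a known target of p53.

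The knockdowns reached their targets. In the authors' deposited table, Fubp1 stood at 27.9 RPKM (reads per kilobase of transcript, scaled to sequencing depth) in Fubp1 knockdown cells and 19.8 RPKM in double knockdown cells, against 180.1 RPKM in siNT cells. Khsrp stood at 8.06 RPKM in Khsrp knockdown cells and 6.77 RPKM in double knockdown cells, against 47.0 RPKM in siNT cells, and Rbm38 at 4.03 RPKM in Rbm38 knockdown cells, against 34.5 RPKM in siNT cells. Khsrp itself fell in Rbm38 knockdown cells, at 33.8 RPKM, with a log2 fold change of -0.70 and a false discovery rate (FDR) of 0.0243 in the authors' deposited table. Of 16 neuroblastoma markers, 13 reached 1 RPKM in siNT cells, and Nefl and Nefm were among those that stayed below 0.1 RPKM in every group. The 16 markers summed to between 1101 RPKM (double knockdown) and 1640 RPKM (Rbm38 knockdown), against 1436 RPKM in siNT cells. Markers of fibroblasts, immune cells, glia and epithelium summed to at most 2.71, 1.90, 6.93 and 0.44 RPKM in any group. Libraries had a median of 99 to 221 reads per tested splicing event, with the fewest in the second double knockdown library.

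Both pairs of alternative exons on which the splicing results turn are coding exons of equal length within their pair, so one can replace the other without shifting the reading frame. The sequences below come from GENCODE vM21 transcripts (GRCm38), and capitals mark the bases at which the exons of a pair differ. Pkm exon 9 lies at chr9:59675029-59675195 and exon 10 at chr9:59675568-59675734, both on the plus strand; they share 103 of 167 bases (61.7%).
Pkm exon 9: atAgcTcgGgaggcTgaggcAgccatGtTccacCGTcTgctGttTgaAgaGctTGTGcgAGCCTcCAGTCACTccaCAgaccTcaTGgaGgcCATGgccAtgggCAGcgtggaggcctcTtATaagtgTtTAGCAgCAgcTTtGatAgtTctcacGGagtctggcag
Pkm exon 10: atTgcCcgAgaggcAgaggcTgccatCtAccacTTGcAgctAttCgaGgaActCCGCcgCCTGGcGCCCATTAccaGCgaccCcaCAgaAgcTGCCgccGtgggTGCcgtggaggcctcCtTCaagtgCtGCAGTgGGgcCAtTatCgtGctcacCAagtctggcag
The P4ha1 exons, at chr10:59354340-59354410 and chr10:59355350-59355420 on the plus strand, share 42 of 71 bases (59.2%). P4ha1 encodes the catalytic subunit of collagen prolyl 4-hydroxylase, and these exons are used as alternatives.
P4ha1 first 71 nt exon: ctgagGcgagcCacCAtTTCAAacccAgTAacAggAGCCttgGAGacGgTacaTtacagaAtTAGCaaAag
P4ha1 second 71 nt exon: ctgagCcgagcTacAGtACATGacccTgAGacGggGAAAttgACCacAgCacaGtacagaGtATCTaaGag
The 132 nt exon of Vegfa, at chr17:46020991-46021122 on the minus strand, is shown because the rise in its inclusion was called in 2 knockdowns. It encodes residues of the heparin-binding part of the longer VEGF-A forms, and no capitals are used in it.
Vegfa 132 nt exon: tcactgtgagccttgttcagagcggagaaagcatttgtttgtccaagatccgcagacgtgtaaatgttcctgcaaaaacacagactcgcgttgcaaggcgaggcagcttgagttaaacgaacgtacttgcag

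The promoters of Ldha and Pgk1, which encode lactate dehydrogenase A and phosphoglycerate kinase, are shown because both genes are highly expressed members with several copies of the HIF-1 core letters. The 250 bases before each gene's start come from RefSeq (GRCm38.p6), at chr7:46845554-46845803 and chrX:106186850-106187099, both on the plus strand. Capitals mark ACGTG or GCGTG read on either strand; a CACGTG therefore holds ACGTG on both strands and counts as 2 matches.
Ldha promoter: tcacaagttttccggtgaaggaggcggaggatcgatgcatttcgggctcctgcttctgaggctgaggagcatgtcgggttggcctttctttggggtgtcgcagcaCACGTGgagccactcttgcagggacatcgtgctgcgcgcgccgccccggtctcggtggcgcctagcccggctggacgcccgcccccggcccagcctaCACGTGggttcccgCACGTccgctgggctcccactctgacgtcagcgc
Pgk1 promoter: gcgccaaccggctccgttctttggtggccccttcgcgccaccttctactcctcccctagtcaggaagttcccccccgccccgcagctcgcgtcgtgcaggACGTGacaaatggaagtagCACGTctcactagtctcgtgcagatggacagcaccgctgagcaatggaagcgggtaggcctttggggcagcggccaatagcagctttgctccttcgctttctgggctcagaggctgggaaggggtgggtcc
The Ldha stretch held 5 matches and the Pgk1 stretch 2. Over windows from 250 bases before to 50 bases after the start, either motif was found in 37 of 46 promoters of the members (80.4%), which belong to 32 members, of which 29 had a match. The share among all 32851 RefSeq promoters was 43.8%, or 14380 promoters.  These matches describe the letters and do not show binding.

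In expression, more members fell than rose after knockdown of Fubp1, of Fubp1 with Khsrp, and of Rbm38, most of them glycolytic genes, and few members passed the test after knockdown of Khsrp alone. Expression was deposited as a single value per group with the authors' log2 fold change and FDR of each knockdown against siNT, so no error per library can be given, and a member is said to have risen or fallen only where the authors' FDR was below 0.05. The authors tested 31 of the 33 members; Ldhb and Pdk3 were listed at 0.01 RPKM or less in every group and were not tested. In Fubp1 knockdown cells 16 of the 31 fell and 3 rose in the authors' deposited table, where 10.5% of all 23378 genes tested fell and 12.0% rose. In Khsrp knockdown cells 3 fell and 2 rose, where 4.34% of all genes fell and 3.82% rose. In double knockdown cells 16 fell and 1 rose, where 13.7% of all genes fell and 13.2% rose. In Rbm38 knockdown cells 14 fell and 0 rose, where 7.02% of all genes fell and 7.96% rose; Pfkm was the only higher member with an unadjusted p under 0.05 there (p = 0.0442 in the authors' deposited table). The share of members that fell was thus well above that of all genes in the Fubp1, double and Rbm38 knockdowns, and the share that rose was below it in the double and Rbm38 knockdowns.

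The median log2 fold change of the members in the authors' deposited table was -0.49 in Fubp1, -0.04 in Khsrp, -0.44 in double and -0.52 in Rbm38 knockdown cells, where the medians of all genes tested lay between 0.00 and 0.02. Summed over the 33 members, levels came to 5554 RPKM in Fubp1, 8452 RPKM in Khsrp, 5733 RPKM in double and 5711 RPKM in Rbm38 knockdown cells, against 8231 RPKM in siNT cells. The 24 members of glycolysis and lactate metabolism carried most of this sum. Of their 22 tested genes, 12 fell in Fubp1, 2 in Khsrp, 12 in double and 10 in Rbm38 knockdown cells. Among all genes tested, 10.5%, 4.34%, 13.7% and 7.02% fell in that order of knockdowns. Of the 9 members of the hypoxia response, 4, 1, 4 and 4 fell in the same order of knockdowns, and 1 rose in double knockdown cells, where 13.2% of all genes rose. In each knockdown 1 of the falls was that of Egln3, at 0.05 to 0.34 RPKM, and it was the only fall in Khsrp knockdown cells. The rise was that of Car9, at 0.61 RPKM in siNT cells. The median log2 fold changes of the 9 members were -0.30, -0.10, -0.11 and -0.54 in the same order of knockdowns. In double knockdown cells the 9 members summed to 534.4 RPKM, against 533.1 RPKM in siNT cells. That sum includes Vegfa, at 143.8 RPKM in double knockdown cells, against 84.2 RPKM in siNT cells. The log2 ratio of these Vegfa levels was 0.77, where the authors' log2 fold change was 0.34 (FDR 0.0829) and did not pass. All 4 comparisons used the same siNT libraries. The titles number siNT A and B next to the Fubp1 libraries and siNT C next to those of the other knockdowns, and with a single value per group these library sets cannot be told apart in expression. In such bulk RNA, less transcript per cell and fewer cells with the transcript cannot be told apart.

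**Figure D1:**
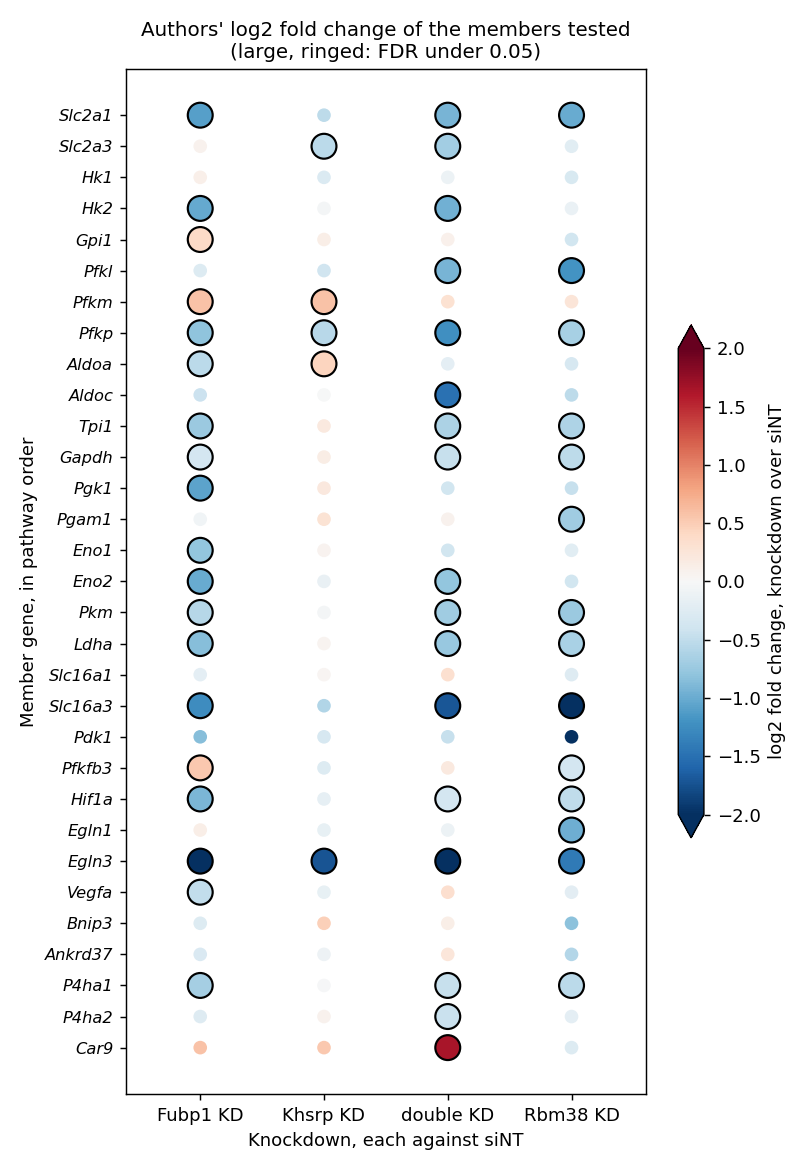
Each dot is the authors' log2 fold change (colour, knockdown over siNT, clipped at -2 and 2) of 1 member gene, in pathway order down the page, for each knockdown across; large ringed dots had an FDR under 0.05. Blue ringed dots, which are members that fell, number 16 in Fubp1, 3 in Khsrp, 16 in double and 14 in Rbm38 knockdown cells.

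Glucose enters cells through the transporters GLUT1 and GLUT3, encoded by Slc2a1 and Slc2a3. Slc2a1 was at 9.25 RPKM in Fubp1, 14.3 RPKM in Khsrp, 11.1 RPKM in double and 10.4 RPKM in Rbm38 knockdown cells, against 20.2 RPKM in siNT cells. It fell in 3 knockdowns in the authors' deposited table, with log2 fold changes of -1.10 (FDR 0.00295) in Fubp1, -0.93 (FDR 0.0123) in double and -1.01 (FDR 0.0108) in Rbm38 knockdown cells; in Khsrp knockdown cells its value was -0.53 (FDR 0.345). Slc2a3 had the other pattern. Its levels were 146.5 RPKM in Fubp1, 85.5 RPKM in Khsrp, 98.0 RPKM in double and 132.8 RPKM in Rbm38 knockdown cells, against 134.5 RPKM in siNT cells. It fell where Khsrp was targeted, with log2 fold changes in the authors' deposited table of -0.54 (FDR 0.00776) in Khsrp and -0.69 (FDR 5.30e-05) in double knockdown cells. In Fubp1 knockdown cells its value was 0.08 and in Rbm38 knockdown cells -0.23, neither past the threshold.

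Hexokinase traps glucose in the cell. Hk2, the inducible form, was at 19.2 RPKM in Fubp1, 34.5 RPKM in Khsrp, 18.0 RPKM in double and 33.1 RPKM in Rbm38 knockdown cells, against 36.5 RPKM in siNT cells. By the authors' deposited table it fell in Fubp1 knockdown cells (log2 fold change -1.03, FDR 2.64e-11) and in double knockdown cells (-0.96, FDR 3.31e-10), while its values were -0.04 in Khsrp and -0.13 in Rbm38 knockdown cells. Hk1, the form that most cells express, lay between 63.6 and 83.0 RPKM in the knockdowns, against 77.7 RPKM in siNT cells, and passed the threshold in no knockdown. Gpi1, whose product converts glucose-6-phosphate to fructose-6-phosphate, rose in Fubp1 knockdown cells by the authors' deposited table, at 381.2 RPKM against 285.0 RPKM in siNT cells (log2 fold change 0.40, FDR 0.0363).

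Phosphofructokinase commits sugar to glycolysis, and its 3 genes moved differently. Pfkp, the platelet form, fell in all 4 knockdowns: it was at 162.8 RPKM in Fubp1, 200.5 RPKM in Khsrp, 116.2 RPKM in double and 223.9 RPKM in Rbm38 knockdown cells, against 290.6 RPKM in siNT cells. Its log2 fold changes in the authors' deposited table were -0.80 (FDR 4.11e-05), -0.55 (FDR 0.0196), -1.23 (FDR 3.83e-11) and -0.67 (FDR 0.00138) in that order. Pfkl, the liver form, was at 88.8 RPKM in Fubp1, 71.7 RPKM in Khsrp, 50.9 RPKM in double and 47.4 RPKM in Rbm38 knockdown cells, against 106.7 RPKM in siNT cells. It fell in double (-0.94, FDR 3.35e-05) and Rbm38 (-1.20, FDR 2.30e-07) knockdown cells in the authors' deposited table. Pfkm, the muscle form, was higher than in siNT cells in every knockdown: 41.1 RPKM in Fubp1, 41.9 RPKM in Khsrp, 34.1 RPKM in double and 34.1 RPKM in Rbm38 knockdown cells, against 27.6 RPKM in siNT cells. The rise passed the threshold in Fubp1 (log2 fold change 0.59, FDR 5.24e-05) and Khsrp (0.59, FDR 0.000226) knockdown cells in the authors' deposited table, and its FDR was 0.0673 in double and 0.180 in Rbm38 knockdown cells.

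Aldolase cleaves the 6-carbon sugar. Aldoa, its abundant form, was at 659.2 RPKM in Fubp1, 1374 RPKM in Khsrp, 873.1 RPKM in double and 827.9 RPKM in Rbm38 knockdown cells, against 991.4 RPKM in siNT cells. It moved in opposite directions in the single knockdowns of Fubp1 and Khsrp in the authors' deposited table, falling in Fubp1 (log2 fold change -0.54, FDR 0.00125) and rising in Khsrp (0.44, FDR 0.0233) knockdown cells; the difference between these knockdowns was not tested. Aldoc, the brain form, was barely expressed, at 1.07 RPKM in double knockdown cells, where it fell (-1.50, FDR 0.00641 in the authors' deposited table), against 2.41 RPKM in siNT cells. In the other 3 knockdowns Aldoc lay between 1.88 and 2.39 RPKM. Tpi1, whose triose phosphate isomerase interconverts the 3-carbon products, was at 288.7 RPKM in Fubp1, 557.6 RPKM in Khsrp, 311.1 RPKM in double and 323.0 RPKM in Rbm38 knockdown cells, against 488.2 RPKM in siNT cells. Its log2 fold changes in the authors' deposited table were -0.74 (FDR 4.63e-05) in Fubp1, -0.63 (FDR 0.000557) in double and -0.62 (FDR 0.00135) in Rbm38 knockdown cells, and 0.20 (FDR 0.540) in Khsrp knockdown cells.

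The later steps of glycolysis make ATP and pyruvate. Of their 6 members, 5 fell in Fubp1, 0 in Khsrp, 3 in double and 3 in Rbm38 knockdown cells, and none rose. Among all genes tested, 10.5%, 4.34%, 13.7% and 7.02% fell and 12.0%, 3.82%, 13.2% and 7.96% rose, in that order of knockdowns. The lowest unadjusted p of the 6 members in Khsrp knockdown cells was 0.221, for Pgk1, in the authors' deposited table. Gapdh, which oxidises glyceraldehyde-3-phosphate and often serves as a reference gene, was at 262.5 RPKM in Fubp1, 427.6 RPKM in Khsrp, 301.0 RPKM in double and 287.9 RPKM in Rbm38 knockdown cells, against 359.8 RPKM in siNT cells. It fell in the authors' deposited table by 0.37 (FDR 0.0400) in Fubp1, 0.46 (FDR 0.00618) in double and 0.52 (FDR 0.00296) in Rbm38 knockdown cells on the log2 scale. Pgk1, whose kinase makes the first ATP, was at 218.1 RPKM in Fubp1, 441.2 RPKM in Khsrp, 294.5 RPKM in double and 283.3 RPKM in Rbm38 knockdown cells, against 429.8 RPKM in siNT cells. The fall of Pgk1 passed the threshold in Fubp1 knockdown cells (log2 fold change -1.07, FDR 1.83e-07 in the authors' deposited table), and the FDR was 0.105 in double and 0.0636 in Rbm38 knockdown cells. Pgam1, the phosphoglycerate mutase, fell in Rbm38 knockdown cells (-0.71, FDR 0.0299 in the authors' deposited table), at 224.3 RPKM, against 356.3 RPKM in siNT cells; in the other knockdowns it lay between 333.4 and 446.0 RPKM.

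Enolase makes phosphoenolpyruvate. Eno1, its common form, was at 720.5 RPKM in Fubp1, 922.9 RPKM in Khsrp, 663.4 RPKM in double and 785.4 RPKM in Rbm38 knockdown cells, against 1083 RPKM in siNT cells, and fell in Fubp1 knockdown cells by the authors' deposited table (a log2 change of -0.78, FDR 1.32e-05). Its near-copy Eno1b, listed as a separate gene, was at 144.3 RPKM in Fubp1, 170.4 RPKM in Khsrp, 120.2 RPKM in double and 133.1 RPKM in Rbm38 knockdown cells, against 208.5 RPKM in siNT cells. Eno1b fell in Fubp1 (-0.50, FDR 0.0261), double (-0.81, FDR 6.46e-05) and Rbm38 (-0.72, FDR 0.00113) knockdown cells in the authors' deposited table. It did not pass in Khsrp knockdown cells (-0.32, FDR 0.324). How reads were shared between the 2 copies bears on the values of both. Eno2, the neuronal form, was at 21.4 RPKM in Fubp1, 32.1 RPKM in Khsrp, 21.02 RPKM in double and 31.3 RPKM in Rbm38 knockdown cells, against 39.3 RPKM in siNT cells. It fell in Fubp1 (-1.01, FDR 5.62e-05) and double (-0.78, FDR 0.00195) knockdown cells in the authors' deposited table. Pkm, the pyruvate kinase gene, was at 643.2 RPKM in Fubp1, 865.8 RPKM in Khsrp, 527.8 RPKM in double and 573.9 RPKM in Rbm38 knockdown cells, against 950.4 RPKM in siNT cells. Its log2 fold changes in the authors' deposited table were -0.58 (FDR 0.00127) in Fubp1, -0.71 (FDR 3.17e-05) in double and -0.73 (FDR 4.17e-05) in Rbm38 knockdown cells, while the value in Khsrp knockdown cells was -0.04 (FDR 0.996). Gapdh, Aldoa, Tpi1, Pgk1, Pgam1, Eno1 and Ldha have processed pseudogenes or near copies in the mouse genome, so their levels are uncertain to the extent that reads were divided among them.

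Ldha and Slc16a3, the main genes of lactate formation and export here, fell in the same 3 knockdowns. Ldha, whose subunit favours making lactate, was the most abundant member in siNT cells. It was at 823.2 RPKM in Fubp1, 1774 RPKM in Khsrp, 1013 RPKM in double and 1107 RPKM in Rbm38 knockdown cells, against 1584 RPKM in siNT cells. Its log2 fold changes in the authors' deposited table were -0.86 (FDR 2.13e-08) in Fubp1, -0.76 (FDR 6.96e-07) in double and -0.64 (FDR 8.52e-05) in Rbm38 knockdown cells, and 0.05 (FDR 0.951) in Khsrp knockdown cells. Ldhb, the subunit that favours using lactate, was at most 0.01 RPKM in any group. Slc16a3, which encodes MCT4, the lactate exporter of glycolytic cells, was at 140.5 RPKM in Fubp1, 213.9 RPKM in Khsrp, 89.1 RPKM in double and 80.9 RPKM in Rbm38 knockdown cells, against 336.0 RPKM in siNT cells. Of the members at 1 RPKM or more in siNT cells, it had the most negative log2 fold change with an FDR under 0.05 in Fubp1 (-1.26, FDR 0.0158), double (-1.72, FDR 0.000451) and Rbm38 (-2.07, FDR 5.50e-05) knockdown cells in the authors' deposited table. In Khsrp knockdown cells its value was -0.60 (FDR 0.453). Slc16a1, which encodes the more widely expressed transporter MCT1, lay between 47.4 and 71.8 RPKM in the knockdowns, against 61.3 RPKM in siNT cells, and passed the threshold in none.

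**Figure D2:**
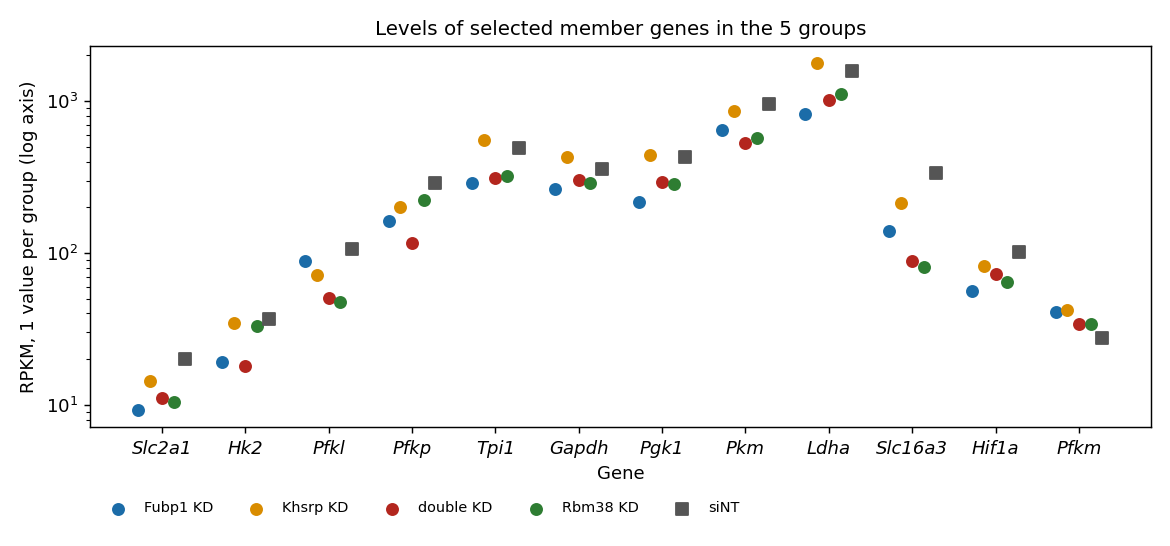
Levels of 12 members (RPKM, log axis), with 1 value per group for the 4 knockdowns and siNT. Ldha, Pkm, Tpi1 and Pgk1 are lower in Fubp1, double and Rbm38 knockdown cells than in siNT cells, Slc16a3 is lower in all 4, and Pfkm is higher in all 4.

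The switches that direct pyruvate and fructose-6-phosphate moved less uniformly. Pfkfb3 encodes the enzyme that makes fructose-2,6-bisphosphate, the strongest activator of phosphofructokinase. It was at 50.1 RPKM in Fubp1, 27.5 RPKM in Khsrp, 37.2 RPKM in double and 26.3 RPKM in Rbm38 knockdown cells, against 33.8 RPKM in siNT cells. In the authors' deposited table it rose in Fubp1 (log2 fold change 0.54, FDR 0.000254) and fell in Rbm38 knockdown cells (-0.36, FDR 0.0418). Pdk1, a kinase that turns off pyruvate dehydrogenase, was low, between 0.63 and 2.23 RPKM in the knockdowns against 3.50 RPKM in siNT cells, and passed the threshold in none; its value of -2.25 in Rbm38 knockdown cells had an FDR of 0.116 in the authors' deposited table. Pdk3, a second such kinase, was at most 0.01 RPKM.

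Hif1a mRNA fell in the same 3 knockdowns as much of glycolysis. It was at 56.0 RPKM in Fubp1, 82.6 RPKM in Khsrp, 72.8 RPKM in double and 64.5 RPKM in Rbm38 knockdown cells, against 101.5 RPKM in siNT cells. Its log2 fold changes in the authors' deposited table were -0.91 (FDR 4.72e-10) in Fubp1, -0.37 (FDR 0.0194) in double and -0.51 (FDR 0.00151) in Rbm38 knockdown cells, and -0.17 (FDR 0.511) in Khsrp knockdown cells. HIF-1 alpha protein was not measured. Egln1, the main oxygen sensor, fell in Rbm38 knockdown cells, where it was at 24.3 RPKM, against 48.2 RPKM in siNT cells (-0.97, FDR 3.71e-07 in the authors' deposited table), and lay between 40.8 and 54.4 RPKM in the other knockdowns. Egln3, a sensor that HIF-1 itself induces, fell in all 4 knockdowns in the authors' deposited table, with log2 fold changes from -2.81 to -1.41, but its levels of 0.05 to 0.14 RPKM in knockdown cells and 0.34 RPKM in siNT cells are close to the lowest the table lists.

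The remaining hypoxia targets did not move as 1 group. Vegfa, the angiogenic growth factor, fell in Fubp1 knockdown cells (log2 fold change -0.49, FDR 0.0111 in the authors' deposited table). Its levels were 53.9 RPKM in Fubp1, 101.7 RPKM in Khsrp, 143.8 RPKM in double and 95.9 RPKM in Rbm38 knockdown cells, against 84.2 RPKM in siNT cells. P4ha1 was at 30.4 RPKM in Fubp1, 46.5 RPKM in Khsrp, 35.9 RPKM in double and 33.6 RPKM in Rbm38 knockdown cells, against 48.4 RPKM in siNT cells. It fell in the authors' deposited table in Fubp1 (-0.68, FDR 0.000153), double (-0.46, FDR 0.0144) and Rbm38 (-0.54, FDR 0.00528) knockdown cells. P4ha2, the gene of a second such subunit, fell in double knockdown cells (-0.44, FDR 0.0110 in the authors' deposited table), at 83.2 RPKM, against 108.4 RPKM in siNT cells. Car9, a surface carbonic anhydrase, was the only member that rose in double knockdown cells (1.65, FDR 0.00299 in the authors' deposited table), at 1.52 RPKM, against 0.61 RPKM in siNT cells. In the other knockdowns Car9 lay between 0.15 and 0.96 RPKM. Bnip3, a mitophagy receptor, and Ankrd37 passed the threshold in no knockdown. The ratio of the group RPKM values and the authors' log2 fold change had opposite signs for 7 pairs of member and knockdown. This count covers members at 1 RPKM or more in siNT cells. The pairs concern Gpi1, Eno1, Slc16a1, Vegfa and Ankrd37, and none had an FDR under 0.05. Below that level, the signs also differed for Car9 in Khsrp knockdown cells (log2 ratio -0.18, authors' log2 fold change 0.54, FDR 0.675).

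Related genes outside the 33 did not show the same predominance of falls. Of 29 tested genes in a list of other glycolytic enzymes and glucose transporters, 5 rose and 5 fell in Fubp1, 1 rose and 2 fell in Khsrp, 8 rose and 2 fell in double, and 2 rose and 4 fell in Rbm38 knockdown cells. Of all 23378 genes tested, 12.0% rose and 10.5% fell in Fubp1, and 3.82% rose and 4.34% fell in Khsrp knockdown cells. The shares were 13.2% and 13.7% in double, and 7.96% and 7.02% in Rbm38 knockdown cells. In double knockdown cells the list thus leaned upward. In Fubp1, Khsrp and Rbm38 knockdown cells its share that fell was above that of all genes, on few genes. In this list, the gene under the symbol Pgm1 fell to 10.5 RPKM in double knockdown cells, against 21.3 RPKM in siNT cells (log2 fold change -1.10, FDR 4.18e-07 in the authors' deposited table). Pck2, the mitochondrial carboxykinase gene, fell to 21.6 RPKM in Fubp1 knockdown cells, against 42.3 RPKM in siNT cells (-0.97, FDR 4.33e-09 in the authors' deposited table). The muscle enolase gene Eno3 rose in double knockdown cells to 31.03 RPKM, against 18.8 RPKM in siNT cells (1.07, FDR 1.27e-08 in the authors' deposited table), and Pgam2 rose in Rbm38 knockdown cells at 0.63 RPKM, against 0.10 RPKM in siNT cells (2.45, FDR 0.00245 in the authors' deposited table). The medians of this list lay between -0.04 and 0.15.

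Genes of pyruvate entry into mitochondria and of lactate transport fell and rose in similar numbers. Of 18 tested, 4 rose and 5 fell in Fubp1, 1 rose and 3 fell in Khsrp, 2 rose and 4 fell in double, and 2 rose and 3 fell in Rbm38 knockdown cells. Of all genes tested, 12.0% rose and 10.5% fell in Fubp1, and 3.82% rose and 4.34% fell in Khsrp knockdown cells. The shares were 13.2% and 13.7% in double, and 7.96% and 7.02% in Rbm38 knockdown cells. On these few genes, the share that fell was above that of all genes in each knockdown. Pdp2, a phosphatase that turns pyruvate dehydrogenase on, fell to 3.37 RPKM in double knockdown cells, against 12.04 RPKM in siNT cells (log2 fold change -1.83, FDR 7.14e-30 in the authors' deposited table). Mpc1, a subunit of the mitochondrial pyruvate carrier, fell to 109.7 RPKM in Fubp1 knockdown cells, against 209.3 RPKM in siNT cells (-1.03, FDR 7.41e-07 in the authors' deposited table). Pdk2, the kinase opposing Pdp2, had the highest log2 fold changes of the list in the authors' deposited table, 2.71 (FDR 4.53e-19) in Fubp1 and 1.42 (FDR 4.33e-05) in double knockdown cells. Its levels were low, 1.12 RPKM in Fubp1 and 0.53 RPKM in double knockdown cells, against 0.26 RPKM in siNT cells.

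The pentose phosphate pathway branches off after hexokinase. Of its 10 tested genes, 1 fell in Fubp1 knockdown cells and none in the other knockdowns. None rose in Fubp1, 1 in Khsrp, 2 in double and 1 in Rbm38 knockdown cells. Among all genes tested, 10.5%, 4.34%, 13.7% and 7.02% fell and 12.0%, 3.82%, 13.2% and 7.96% rose, in that order of knockdowns. With 10 genes, counts this low are not read as a difference from all genes. Prps1, which makes phosphoribosyl pyrophosphate, fell in Fubp1 knockdown cells to 310.5 RPKM, against 410.3 RPKM in siNT cells (log2 fold change -0.51, FDR 0.00113 in the authors' deposited table). The 2 oxidative dehydrogenases of the pathway rose in double knockdown cells: G6pdx to 131.1 RPKM, against 87.7 RPKM in siNT cells (0.68, FDR 7.75e-06 in the authors' deposited table), and Pgd to 604.8 RPKM, against 417.6 RPKM in siNT cells (0.52, FDR 0.00101 in the authors' deposited table). Shpk, the sedoheptulose kinase gene, rose in Rbm38 knockdown cells to 2.26 RPKM, against 0.87 RPKM in siNT cells (1.34, FDR 1.21e-09 in the authors' deposited table).

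Other genes of the hypoxia response also went both ways. Of 45 tested, 6 rose and 9 fell in Fubp1, 2 rose and 2 fell in Khsrp, 10 rose and 9 fell in double, and 4 rose and 7 fell in Rbm38 knockdown cells, with list medians between -0.08 and 0.10. Of all genes tested, 12.0% rose and 10.5% fell in Fubp1, and 3.82% rose and 4.34% fell in Khsrp knockdown cells. The shares were 13.2% and 13.7% in double, and 7.96% and 7.02% in Rbm38 knockdown cells. The share of the list that fell was above that of all genes in Fubp1, double and Rbm38 knockdown cells. In Khsrp knockdown cells it was near that of all genes. In double knockdown cells the share that rose was also above that of all genes. Fam162a, a HIF-1 target of the mitochondrion, fell to 60.7 RPKM in Fubp1 knockdown cells, against 169.1 RPKM in siNT cells (log2 fold change -1.43, FDR 0.00157 in the authors' deposited table). Car12, a relative of Car9, fell to 8.40 RPKM in Rbm38 knockdown cells, against 18.4 RPKM in siNT cells (-1.25, FDR 3.82e-07 in the authors' deposited table). Ppfia4 had the highest log2 fold changes of the list in the authors' deposited table, 2.27 (FDR 8.78e-06) in Fubp1 and 2.76 (FDR 2.18e-08) in double knockdown cells, but its levels were 0.16 RPKM in Fubp1 and 0.19 RPKM in double knockdown cells, against 0.03 RPKM in siNT cells. Hmox1, at higher levels, rose in double knockdown cells to 327.5 RPKM, against 107.3 RPKM in siNT cells. Its log2 fold change was 1.575 (FDR 6.7e-17) in the authors' deposited table.

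Splicing is given per library as PSI (percent spliced in): of the reads that inform on an exon or intron, the percentage that include it. Of 651 events listed for 32 of the members, 89 in 20 members could be tested, having 10 or more reads per library throughout and a mean PSI between 1 and 99: 29 exons, 36 introns, 17 alternative 5' splice sites and 7 alternative 3' splice sites. An event was called at a limma adjusted p (Benjamini-Hochberg over all 60137 events tested) under 0.05 and a difference of at least 10 PSI points. By this rule 2 of the 89 were called in Fubp1 knockdown cells, 2 in Khsrp, 5 in double and 2 in Rbm38 knockdown cells, each against siNT, where 1.16%, 0.186%, 6.98% and 0.358% of all events were called in the same order. The double knockdown share was thus near that of all events, and in Khsrp and Rbm38 knockdown cells both called events were the Pkm exons. In Fubp1 knockdown cells both called events had higher inclusion. The 8 events called in any comparison lay in Pkm, Vegfa, Slc16a3, P4ha1, Ldha and P4ha2. Among the 65 member events for which the authors' deposited table gives its own call, 8 were marked as changed in Fubp1, 8 in Khsrp, 13 in double and 6 in Rbm38 knockdown cells, where 5.18%, 2.34%, 14.9% and 2.59% of all events were so marked. Between knockdowns, 7 of the 89 were called for double against Fubp1 (4.21% of all events), 2 for double against Khsrp (4.63%) and 2 for Rbm38 against Khsrp knockdown cells (0.481%).

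The choice between the Pkm exons moved in opposite directions after knockdown of Khsrp and of Rbm38. Exon 9, which gives PKM1, had PSI values of 30.2 and 29.5 in the Fubp1 knockdown libraries, 15.0 and 15.2 in the Khsrp knockdown libraries, 9.71 and 9.62 in the double knockdown libraries and 46.8 and 43.8 in the Rbm38 knockdown libraries, against 31.3, 29.8 and 29.8 in the siNT libraries. Both Rbm38 knockdown libraries were above all siNT libraries, both Fubp1 knockdown libraries lay close to them, and the Khsrp and double knockdown libraries were below them without overlap. The difference from siNT was -15.2 points in Khsrp (limma adjusted p = 2.39e-07), -20.6 points in double (limma adjusted p = 3.78e-08) and 15.0 points in Rbm38 knockdown cells (limma adjusted p = 1.81e-07). In Fubp1 knockdown cells it was -0.47 points (limma adjusted p = 0.890). Exon 9 was covered by 1303 to 7458 reads per library.

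Exon 10, which gives PKM2, had the mirrored pattern. Its PSI values were 53.2 and 51.9 in the Fubp1 knockdown libraries, 74.8 and 73.4 in the Khsrp knockdown libraries, 84.0 and 84.4 in the double knockdown libraries and 36.7 and 38.7 in the Rbm38 knockdown libraries, against 49.5, 51.6 and 54.3 in the siNT libraries. Here the Khsrp and double knockdown libraries were above all siNT libraries and the Rbm38 knockdown libraries below them. The difference from siNT was 22.2 points in Khsrp (limma adjusted p = 1.00e-06), 32.4 points in double (limma adjusted p = 5.13e-08), -14.1 points in Rbm38 (limma adjusted p = 8.30e-05) and 0.74 points in Fubp1 knockdown cells (limma adjusted p = 0.847). The event table lists this exon as 475 nt long from the start of the 167 nt exon, so reads of the shorter and a longer form cannot be told apart. An intron event of 3494 nt that spans exon 9 fell in PSI in Khsrp (-3.25 points, limma adjusted p = 0.00375) and double knockdown cells (-3.55 points, limma adjusted p = 0.000713), under the 10-point limit. The other 4 tested Pkm events, 1 exon of 155 nt and 3 alternative 5' splice sites, passed in no comparison.

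**Figure D3:**
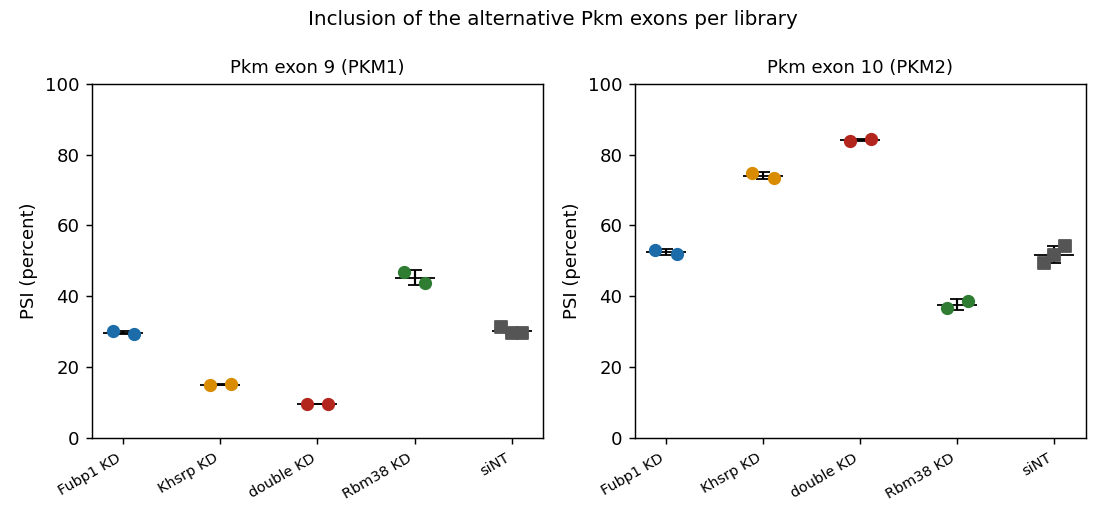
PSI (percent) of Pkm exon 9 (left) and exon 10 (right) in each library of the 4 knockdowns and siNT; points are libraries, and bars give the mean and SD of 2 knockdown or 3 siNT libraries. Exon 9 lies near 15 in Khsrp and below 10 in double knockdown libraries, above 43 in Rbm38 knockdown libraries and near 30 in Fubp1 knockdown and siNT libraries, and exon 10 runs the other way.

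Compared with each other, the knockdowns differed in these exons as well. Rbm38 exceeded Khsrp knockdown cells by 30.2 points for exon 9 (limma adjusted p = 1.28e-10), with means of 45.3 ± 2.08 in Rbm38 and 15.1 ± 0.16 in Khsrp knockdown cells (SD, n = 2 each). For exon 10 the difference was -36.4 points (limma adjusted p = 8.25e-09), with means of 37.7 ± 1.45 in Rbm38 and 74.1 ± 0.98 in Khsrp knockdown cells. Double knockdown cells, with a mean of 9.66 ± 0.06 for exon 9, were 20.2 points below Fubp1 knockdown cells (limma adjusted p = 1.99e-07) and 5.39 points below Khsrp knockdown cells (limma adjusted p = 0.00274, under the 10-point limit). For exon 10 they were at 84.2 ± 0.31, 31.6 points above Fubp1 (limma adjusted p = 3.46e-07) and 10.1 points above Khsrp knockdown cells (limma adjusted p = 0.00196), a difference of 9.90 points without double knockdown replicate B and 9.43 points without Khsrp replicate B. The calls in Khsrp and Rbm38 knockdown cells against siNT were lost in a fit without read weights (limma adjusted p between 0.258 and 0.400), while those of double knockdown cells against siNT and against Fubp1 knockdown cells held in all 17 alternative fits. The exon 10 call of double against Khsrp knockdown cells held in 14 of 17, and was also lost without read weights (limma adjusted p = 0.108). The siNT library whose title number falls with those of the Khsrp, double and Rbm38 libraries had a PSI of 29.8 for exon 9 and 54.3 for exon 10, and the calls held with a term for this library set.

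Of 10 genes known to act on Pkm exon choice, 7 fell in Fubp1, 2 in Khsrp, 3 in double and 3 in Rbm38 knockdown cells in the authors' deposited table. Of all genes tested, 10.5%, 4.34%, 13.7% and 7.02% fell in the same order of knockdowns. None of the 10 rose, the highest value being 0.55 (FDR 0.133) for Mycn in Rbm38 knockdown cells in the authors' deposited table. Ptbp1, Hnrnpa1 and Hnrnpa2b1 encode repressors of exon 9. In the authors' deposited table Ptbp1 fell in Rbm38 knockdown cells (log2 fold change -0.63, FDR 0.000927), at 246.5 RPKM, against 396.2 RPKM in siNT cells, and had values of -0.11, -0.20 and -0.30 in Fubp1, Khsrp and double knockdown cells that did not pass. Its neuronal relative Ptbp2 was at 73.7 RPKM in Fubp1, 52.8 RPKM in Khsrp, 43.3 RPKM in double and 72.7 RPKM in Rbm38 knockdown cells, against 104.2 RPKM in siNT cells. It fell in all 4 in the authors' deposited table, with log2 fold changes of -0.77, -0.94, -1.34 and -0.35 and FDRs of 1.14e-07, 3.58e-10, 1.37e-21 and 0.0440. Hnrnpa1 fell in Fubp1 knockdown cells (-0.43, FDR 0.0286 in the authors' deposited table), and Hnrnpa2b1 in Fubp1 (-0.48, FDR 0.0451) and double knockdown cells (-0.61, FDR 0.00620 in the authors' deposited table). Nek2, a kinase reported to act with hnRNP A1 on this choice, fell in Fubp1 knockdown cells (-1.13, FDR 3.51e-10 in the authors' deposited table), at 23.3 RPKM, against 47.3 RPKM in siNT cells. Myc, which raises the exon 9 repressors in tumour cells, fell in Khsrp (-0.66, FDR 0.0326) and Rbm38 knockdown cells (-0.67, FDR 0.0174) in the authors' deposited table. The part of these genes in the exon 9 and exon 10 values was not tested.

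Inclusion of the 132 nt Vegfa exon was called as higher in Fubp1 and double knockdown cells, and its mean was also higher in the other knockdowns. Its PSI values were 68.7 and 72.8 in the Fubp1 knockdown libraries, 68.2 and 75.4 in the Khsrp knockdown libraries, 82.2 and 80.2 in the double knockdown libraries and 63.3 and 67.3 in the Rbm38 knockdown libraries, against 58.1, 60.7 and 59.98 in the siNT libraries. No knockdown library overlapped the siNT libraries. The difference was 11.1 points in Fubp1 (limma adjusted p = 0.0131) and 21.6 points in double knockdown cells (limma adjusted p = 4.73e-06), which were called. It was 12.2 points in Khsrp (limma adjusted p = 0.0601) and 5.69 points in Rbm38 knockdown cells (limma adjusted p = 0.378), which did not pass. The authors' own call marks this exon as changed in Fubp1, Khsrp and double knockdown cells, and not in Rbm38 knockdown cells. Double knockdown cells were 10.5 points above Fubp1 (limma adjusted p = 0.00588) and 9.43 points above Khsrp knockdown cells (limma adjusted p = 0.0111, under the 10-point limit). The call in Fubp1 knockdown cells was lost without Fubp1 replicate B (9.09 points, limma adjusted p = 0.170), without read weights (limma adjusted p = 0.406) and without the filter on mean PSI (limma adjusted p = 0.120). The call of double against Fubp1 knockdown cells was lost without Fubp1 replicate A or double knockdown replicate A (limma adjusted p = 0.106 and 0.102), with the library set term (limma adjusted p = 0.229), without read weights (limma adjusted p = 0.225) and without the filter on mean PSI (limma adjusted p = 0.0566).

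A 95 nt exon in the 5' untranslated region of Slc16a3, the lactate exporter gene whose level fell, was included more in double knockdown cells. Its PSI values were 70.7 and 72.7 in the Fubp1 knockdown libraries, 67.5 and 66.3 in the Khsrp knockdown libraries, 88.2 and 82.3 in the double knockdown libraries and 55.4 and 58.0 in the Rbm38 knockdown libraries, against 64.2, 67.0 and 62.1 in the siNT libraries. Both double knockdown libraries were above every other library. They exceeded siNT by 20.8 points (limma adjusted p = 3.38e-06), Fubp1 knockdown cells by 13.6 points (limma adjusted p = 0.000246) and Khsrp knockdown cells by 18.4 points (limma adjusted p = 2.35e-05). The differences of 7.26 points in Fubp1 (limma adjusted p = 0.0619) and -7.77 points in Rbm38 knockdown cells (limma adjusted p = 0.0876) against siNT did not pass. The authors' own call marks this exon as changed in Fubp1, double and Rbm38 knockdown cells, and not in Khsrp knockdown cells. Without double knockdown replicate A, the differences from Fubp1 (10.6 points, limma adjusted p = 0.207) and Khsrp knockdown cells (15.4 points, limma adjusted p = 0.0545) did not pass, and without read weights that from Fubp1 knockdown cells did not (limma adjusted p = 0.105). The exon lies at chr11:120954174-120954268 on the plus strand in GENCODE vM21 (GRCm38).

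The alternative 71 nt exons of P4ha1 differed between Fubp1 and double knockdown cells. The first had PSI values of 47.2 and 42.0 in the Fubp1 knockdown libraries, 28.9 and 25.3 in the Khsrp knockdown libraries, 23.6 and 26.3 in the double knockdown libraries and 28.2 and 26.3 in the Rbm38 knockdown libraries, against 34.5, 34.9 and 30.9 in the siNT libraries. Both Fubp1 knockdown libraries were above the siNT libraries and the libraries of the other knockdowns below them. Against siNT, the difference of 11.2 points in Fubp1 knockdown cells was called (limma adjusted p = 0.0190), and that of -8.46 points in double knockdown cells passed the p threshold alone (limma adjusted p = 0.0240). Those of -6.27 points in Khsrp (limma adjusted p = 0.265) and -6.14 points in Rbm38 knockdown cells (limma adjusted p = 0.246) did not pass. Double knockdown cells differed from Fubp1 knockdown cells by -19.6 points (limma adjusted p = 0.000489). For the second exon the PSI values were 58.2 and 60.3 in the Fubp1 knockdown libraries, 72.3 and 76.0 in the Khsrp knockdown libraries, 78.0 and 74.6 in the double knockdown libraries and 69.3 and 70.7 in the Rbm38 knockdown libraries, against 64.7, 69.2 and 70.5 in the siNT libraries. Here the Fubp1 knockdown libraries were below the siNT libraries, the Khsrp and double knockdown libraries above them, and the Rbm38 knockdown libraries overlapped them. The difference from siNT was -8.88 points in Fubp1 knockdown cells, which did not pass (limma adjusted p = 0.0599), and 1.86 points in Rbm38 knockdown cells (limma adjusted p = 0.773). It was 6.04 points in Khsrp knockdown cells, which did not pass either (limma adjusted p = 0.311). In double knockdown cells it was 8.19 points and passed the p threshold alone (limma adjusted p = 0.0299). The authors' own call marks both P4ha1 exons as changed in Fubp1 and double knockdown cells, and in neither of the other knockdowns. Double knockdown cells were 17.1 points above Fubp1 knockdown cells (limma adjusted p = 0.00135). The Fubp1 call of the first exon was lost without Fubp1 replicate A (8.60 points, limma adjusted p = 0.295) and without siNT replicate C (9.92 points), without read weights (limma adjusted p = 0.402) and without the filter on mean PSI (limma adjusted p = 0.102). Both double against Fubp1 calls were lost with the library set term (limma adjusted p = 0.107 and 0.163) and without read weights (limma adjusted p = 0.0731 and 0.103).

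**Figure D4:**
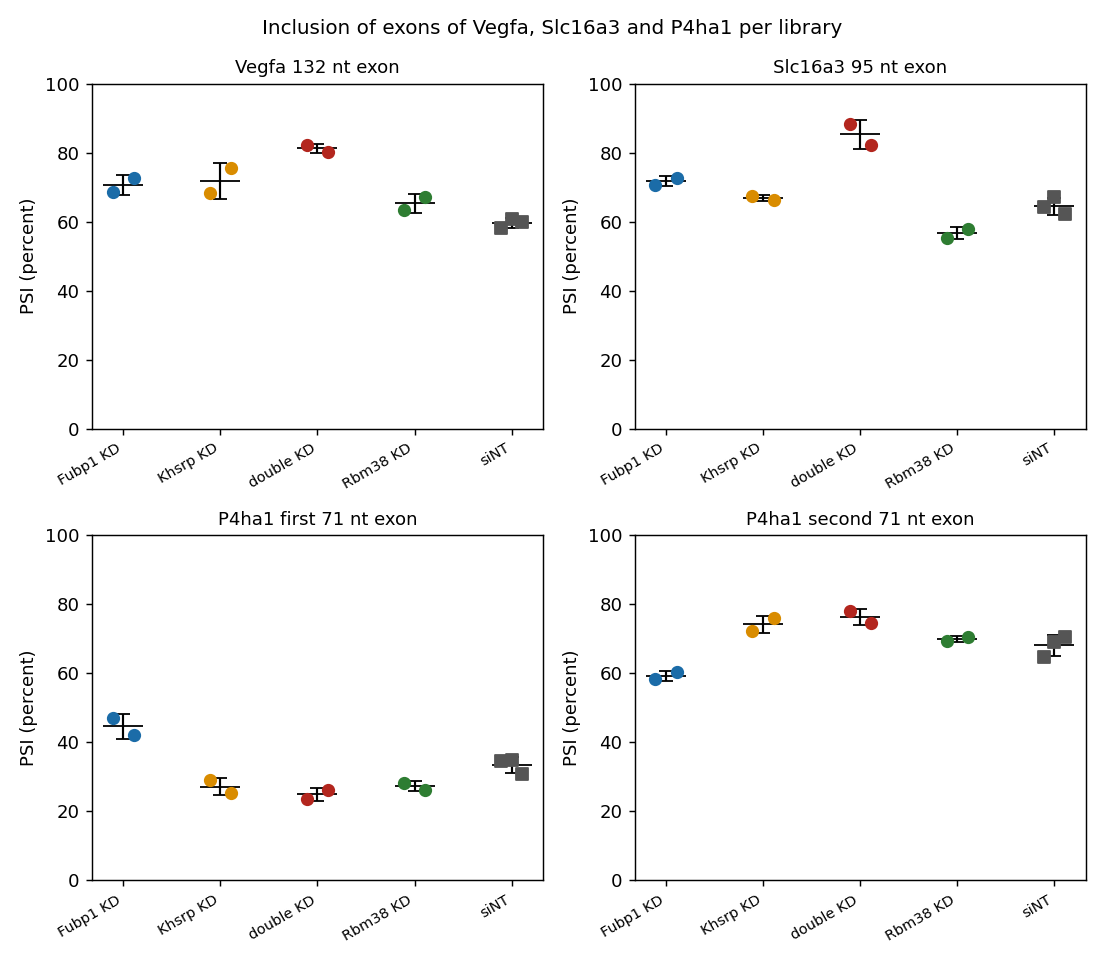
PSI (percent) of the Vegfa 132 nt exon, the Slc16a3 95 nt exon and the 2 alternative P4ha1 exons in each library of the 4 knockdowns and siNT; points are libraries, and bars give the mean and SD of 2 knockdown or 3 siNT libraries. The double knockdown libraries are highest for Vegfa and Slc16a3, and the Fubp1 knockdown libraries stand apart for both P4ha1 exons.

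The 2 called introns rested on few reads. For Ldha, the most abundant member in siNT cells, so few reads may not describe its transcripts as a whole. A 207 nt intron of Ldha, with 40 to 218 reads per library, had PSI values of 83.7 and 77.0 in the double knockdown libraries, against 90.5, 98.2 and 96.2 in the siNT libraries (-14.6 points, limma adjusted p = 0.0365). It was called in 10 of 17 alternative fits and lost without either double knockdown library or without siNT replicate B or C (limma adjusted p between 0.0832 and 0.231). A 2636 nt intron of P4ha2 had PSI values of 9.24 and 1.56 in the double knockdown libraries, against 35.2 and 20.7 in the Fubp1 knockdown libraries, a difference of -22.6 points (limma adjusted p = 0.0157) that was called in 11 of 17 alternative fits and lost without Fubp1 replicate A or either double knockdown library (limma adjusted p between 0.0560 and 0.204). Its siNT libraries were at 15.3, 16.6 and 12.5.

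Smaller shifts that passed the p threshold but not the 10-point limit were found in Hif1a and the phosphofructokinase genes. A 127 nt coding exon of Hif1a, at chr12:73944911-73945037 on the plus strand (GRCm38), had PSI values of 93.9 and 94.1 in the double knockdown libraries, against 99.6, 99.4 and 99.01 in the siNT libraries (-5.33 points, limma adjusted p = 3.76e-06). The libraries of the 3 single knockdowns lay between 98.8 and 100.0. A 93 nt exon of Pfkp was at 8.71 and 8.11 in the double knockdown libraries, against 0.79, 1.33 and 0.74 in the siNT libraries (7.46 points, limma adjusted p = 1.62e-06). A 153 nt Pfkp exon was at 4.27 and 5.58 in the double knockdown libraries, against 0.80, 0.53 and 0.71 in the siNT libraries (4.25 points, limma adjusted p = 1.19e-05). Pfkp, of the phosphofructokinase genes the one that fell in all 4 knockdowns, also had an intron of 9205 nt with higher PSI in Fubp1 (5.43 points, limma adjusted p = 0.0137) and double knockdown cells (7.0 points, limma adjusted p = 0.00446). A 23 nt microexon of Pfkfb3, at chr2:11478036-11478058 on the minus strand (GRCm38), was at 11.2 and 9.08 in the Rbm38 knockdown libraries, against 4.22, 4.79 and 3.80 in the siNT libraries (5.86 points, limma adjusted p = 0.0462). An intron of Eno2 was at 11.4 and 6.80 in the Fubp1 knockdown libraries, against 1.78, 1.28 and 1.03 in the siNT libraries (7.75 points, limma adjusted p = 0.0122).

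Without the 10-point limit, 9 member events passed in Fubp1, 3 in Khsrp, 18 in double and 3 in Rbm38 knockdown cells against siNT by limma, of 89 tested, where 2.88%, 0.367%, 14.6% and 0.713% of all 60137 events passed in the same order. Likewise 15 passed in double against Fubp1 and 11 in double against Khsrp knockdown cells, where 7.96% and 8.0% of all events passed. Some events marked as changed in the authors' deposited table were not called here. Those of the Vegfa, Slc16a3 and P4ha1 exons are given above. A 223 nt exon of Eno2 was so marked in Khsrp and Rbm38 knockdown cells, with PSI values of 45.3 and 48.8 in the Khsrp knockdown libraries and 49.6 and 42.9 in the Rbm38 knockdown libraries, against 59.5, 68.9 and 53.6 in the siNT libraries. Its differences of -13.6 and -14.4 points had limma adjusted p values of 0.0979 and 0.0938. A 147 nt exon of Pfkp was so marked in all 4 knockdowns, with differences of 1.62 to 3.98 points and limma adjusted p values between 0.203 and 0.604. An intron of Pfkl was so marked in Khsrp knockdown cells, where it differed from siNT by 0.36 points (limma adjusted p = 0.946). A second 153 nt exon of Pfkp, so marked in Fubp1 knockdown cells, differed there from siNT by -2.27 points. It passed the p threshold alone (limma adjusted p = 0.00448). For Gapdh, Pgk1, Pgam1, Ldhb, Pdk1, Pdk3, Egln3, Bnip3 and Car9, no event had 10 reads in every library, so no PSI is given. Hk2, Gpi1, Tpi1 and Slc16a1 had 37, 5, 7 and 8 events with that many reads, each with a mean PSI under 1 or over 99, so that each was nearly always left out or nearly always included. In a fit without the limits on mean PSI, no group difference in these events exceeded 1.1 points, under the 10 points needed for a call; 3 such differences, all in Hk2, had a limma adjusted p under 0.05 (lowest 0.0257).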

How the data were processed

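Groups and replicate letters of the 11 RNA-seq libraries came from the sample descriptions, because both Fubp1 titles end in the letter A. The labels call replicates biological without saying whether they were separate cultures. The members, lists and tests were chosen with earlier results of these data known.

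For 52661 genes the authors deposited a group RPKM, without values per library; 23378 of these also have an FDR, a p-value and a log2 fold change from the authors for each knockdown over siNT. Per the submitters' processing notes, mm10, Salmon 0.14.1 and edgeR were used; no source used here says how libraries of a group were combined. These values were used as deposited, so expression has no error or replicate number, and no own test was run on it.

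The authors' event table, in the layout of vast-tools, holds PSI in percent per library as deposited, with read numbers for inclusion and exclusion; from those numbers the deposited PSI could be rebuilt to within 0.25 points. Group PSI scores and calls were deposited too; only the authors' calls were used, and no source used here gives their rule. Its coordinates differ from GRCm38 and their build is not named, so coordinates printed are those of RefSeq promoters and of GENCODE vM21 exons matched by exon and neighbouring intron lengths (Pkm exon 10 by its start and an intron). The table lists Pkm under its older symbol Pkm2, matched through a RefSeq synonym. Of 401633 entries, 37194 first sites of alternative splice-site groups were left out, and 60137 events with at least 10 reads in every library and mean PSI from 1 to 99 were tested. With limma 3.58.1 (R 4.3.3), log2((inclusion + 0.5)/(exclusion + 0.5)) was fitted over all 11 libraries with inverse binomial variance weights and a mean-variance trend. Events were called at an adjusted p under 0.05 and a PSI difference of at least 10 points. Of 7 comparisons, Rbm38 against Khsrp was added after the data were seen. Read numbers were not corrected for PCR duplicates. The fit was tested on simulated data.

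Alternatives were no weights, a replicate block, a term for library set (title numbers 1 to 4 against 8 to 27), 1 in place of 0.5 added, at least 20 reads, no PSI filter, and leaving out each library. Members with an FDR under 0.05 and an absolute log2 fold change of at least 0.5, and Hif1a, Pkm, Ldha and Gapdh, are given with all group values. For Aldoc, Pgam1, Egln1, Egln3 and Car9 some of these are given as a range. Of each related list, the genes past the FDR with the 2 highest and 2 lowest changes over the 4 knockdowns are named, and 1 gene can hold both. Events named are those called by limma or marked by the authors, and the Pkm exons. Hmox1, Hnrnpa1, Hnrnpa2b1, Ptbp1 and Myc, the events under 10 points and the members outside this rule were named after their values were seen. A further neuroblastoma marker is not reported here.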

Additional observations from a re-analysis of the deposited data

Results flagged for a closer look

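These results are listed because knockdowns differed when they were tested against each other with limma, which adjusts over all events. Double and Fubp1 knockdown cells differed by 31.6 PSI points for Pkm exon 10, -20.2 points for Pkm exon 9, 13.6 points for the Slc16a3 exon, 10.5 points for the Vegfa exon, 17.1 points for the second and -19.6 points for the first P4ha1 exon, and -22.6 points for the P4ha2 intron. Double and Khsrp knockdown cells differed by 10.1 points for Pkm exon 10 and 18.4 points for the Slc16a3 exon. Rbm38 and Khsrp knockdown cells differed by 30.2 points for Pkm exon 9 and -36.4 points for exon 10, and against siNT both exons were called in opposite directions in these knockdowns.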

How the results depend on the processing

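Counts of members past the FDR kept within 1.5 times of the reported counts under an FDR of 0.01, a minimum log2 fold change of 0.5 and a filter at 1 RPKM, except in Khsrp knockdown cells, where 3 rather than 5 passed at 0.01. No direction reversed in any alternative run. Without the 10-point limit, called events numbered 9 in Fubp1, 18 in double against siNT, 15 in double against Fubp1 and 11 in double against Khsrp knockdown cells, where 2.88%, 14.6%, 7.96% and 8.0% of all events passed. Without weights they numbered 0 in Fubp1, 0 in Khsrp and 0 in Rbm38 knockdown cells against siNT, 2 in double against Fubp1 and 1 in double against Khsrp; limma gave 6577, 5350 and 5479 of all events an unadjusted p under 0.05 in the 3 comparisons with a count of 0. Without the filter on mean PSI the count in Fubp1 knockdown cells was 0, with 30356 of 220976 events at an unadjusted p under 0.05. With the library set term, double against Fubp1 gave 3 and double against Khsrp 5. With the replicate block, Khsrp gave 5, Rbm38 gave 4 and double against Khsrp gave 5; of 22 reported calls 1 was lost, that of the Ldha intron (limma adjusted p = 0.0744), and nothing shows that the letters pair samples, since A minus B differences correlated between groups at -0.062 to 0.0577 across events. Leaving out 1 library gave 1 to 3 calls in Fubp1, 2 to 5 in Khsrp, 4 to 5 in double and 2 to 4 in Rbm38 knockdown cells against siNT, 4 to 7 for double against Fubp1, 1 to 5 for double against Khsrp and 2 to 3 for Rbm38 against Khsrp. The highest counts for Khsrp and Rbm38, 5 and 4, came without siNT replicate C, and the lowest for Fubp1, 1, without siNT replicate C or Fubp1 replicate A. The cause of these changes was not tested. Expression has 1 value per group, so no library could be left out there, and the authors' FDR alone carries its error.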
